A study of Mus musculus with 35 samples.

Results

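The RNA of every nucleus of a hippocampal sample can be summed into 1 profile, as if the nuclei had been sequenced in bulk, and then split again by cell class. This was done for 3 libraries of PS19 mice and 3 libraries of WT mice, 6 of the 35 samples of the study and 6 of its 14 single-nucleus libraries. A barcode was taken as a nucleus where at least 500 genes were detected, which held for 57821 of 58164 barcodes. Unique molecular identifiers (UMIs, 1 per captured RNA molecule) were summed per gene over all nuclei of a library. All mice were C57BL/6 and 9 months old. In each group replicates 1 and 2 were male and replicate 3 was female. PS19 mice carry a transgene of human tau with a mutation found in frontotemporal dementia, driven by the mouse Prnp promoter. That promoter is active in many cell types, so the pattern of the transgene is not that of the tau gene. A further 4 libraries of CLEAR mutants (CLEAR is the DNA motif that the lysosomal transcription factor TFEB binds) and 4 of such mutants with the transgene (CLEAR_PS19) entered the fits for 1 shared estimate of the spread. Neither WT nor PS19 carried that mutation. Nothing in the labels says how the animals were paired or littered, so p-values measure the spread between these samples.

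The hippocampus holds granule neurons of the dentate gyrus, pyramidal neurons of areas CA1 and CA3, inhibitory neurons and the glial classes. Oligodendrocytes make myelin, astrocytes clear transmitter and supply lipid, and microglia are the resident phagocytes. In tauopathy neurons are lost, while microglia multiply and switch from a homeostatic program of sensing receptors to an activated one of antigen presentation, lipid handling and lysosomal genes. A summed profile mixes these events, because a gene can rise in the sum with more nuclei of the class that expresses it, with more RNA in each such nucleus, or with both. From the sum alone, fewer cells of a type and less RNA per cell cannot be told apart.

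The 6 libraries held 7540 to 11114 nuclei and 58891916 to 95786463 UMIs. Median UMIs per nucleus were 5848 to 8669.5 in WT and 3911 to 5235 in PS19, without overlap, and depth and RNA per nucleus cannot be told apart. Pairs of libraries shared 11 to 38 barcodes, at most 0.422% of the smaller library. Clustering of the 14 libraries gave 43 clusters, of which 21 could be named from markers and were joined into 13 classes. A class name below stands for nuclei like that class by its markers (microglia for microglia-like nuclei, and so on). The other 22 clusters stayed unnamed, 18 of them with the excitatory marker Slc17a7 above 100 CPM and 9 made up mostly of predicted doublets, and each was kept as a unit of its own. They held 11325 nuclei (19.6%), and 25.7 to 31.6% of the UMIs in WT against 34.5 to 37.9% in PS19. Predicted doublets were 6.19 to 9.43% of a library and stayed in the sums, with their removal as an alternative. PS19 2 and PS19 3 stood at the ends of their group. PS19 2 had the fewest granule neurons, the most microglia and the lowest depth. In PS19 3 the microglia lay in the cluster that also held WT microglia: cluster 23, led by Siglech, Selplg and Csf1r, contained 93.1% of its microglia and 94.6 to 96.2% of those of WT. Cluster 24, led by Apobec1, Cd84, Ly86 and Ptprc, contained 96.8 and 99.1% of the microglia of PS19 1 and PS19 2. Granule neurons, CA1 neurons and oligodendrocytes of replicate 3 also fell mostly into clusters of their own, in WT and PS19 alike, with Xist leading that of the granule neurons. PS19 3 is the only female PS19 library, so sex and other traits of that library cannot be told apart where it differs from PS19 1 and PS19 2.

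Prnp (chromosome 2, 131909928 to 131938429), which the transgene's promoter comes from, checked the labels first. Levels, in CPM (UMI counts of a gene scaled to a common library size), were 59.0, 66.8 and 56.2 CPM in WT 1, 2 and 3 and 103, 109 and 91.5 CPM in PS19 1, 2 and 3. All 3 PS19 libraries lay above all WT libraries. The log2 fold change was 0.74 (SE 0.17, edgeR quasi-likelihood test, Benjamini-Hochberg adjusted p 0.0216), and 0.83 with class shares held (adjusted p 0.0336). Fold changes of genes, rises and falls below are all on the log2 scale. Class shares accounted for -2.98% of the difference. By class, Prnp rose in granule neurons by 1.25 (adjusted p 0.00326), in CA3 neurons by 1.02 (7.46e-04), in inhibitory neurons by 0.98 (0.00530) and in oligodendrocyte precursors by 0.88 (0.0226). Astrocytes showed -0.05 (0.994) and microglia 0.21 (0.787). The summed call was lost without PS19 2, WT 1 or WT 2 (adjusted p up to 0.0951), the held call without any 1 library (0.0654 to 0.174), the inhibitory one without PS19 2, WT 1 or WT 2 (up to 0.128) and that of precursors without any library but PS19 1 (up to 0.246), while those of granule and CA3 neurons passed in all 6 fits. With the 6 libraries alone the adjusted p was 0.0501 in the sums and 0.00854 with shares held, without sex as covariate 0.0638 and 0.128, and with thinned nuclei 0.153 and 0.232. Mapt, the mouse tau gene, showed 0.26 (0.144), and passed with the replicate block (0.04) and relative to library totals (0.0256).

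The makeup of the libraries differed first. Granule neurons made up 32.7, 26.9 and 23.7% of nuclei in WT 1, 2 and 3 and 15.5, 6.51 and 17.6% in PS19 1, 2 and 3 (27.8% ± 4.56 against 13.2% ± 5.90, SD, n = 3 each). Microglia made up 3.36, 3.91 and 4.56% in WT and 10.0, 14.5 and 8.09% in PS19. Oligodendrocytes made up 20.7, 17.3 and 22.7% in WT and 30.1, 30.9 and 27.9% in PS19. In these 3 classes the groups did not overlap. Astrocytes were lower in PS19 without overlap (5.64% ± 2.81 against 1.70% ± 0.594), with WT 2 at 8.49% and WT 1 at 2.87%. CA1 neurons were also lower (9.03 to 10.2% against 5.22 to 7.91%) and inhibitory neurons higher as a share (5.92 to 6.42% against 7.02 to 9.51%). T cells were 0, 0 and 0.0111% in WT and 0.198, 0.446 and 0.0780% in PS19. CA3 neurons, oligodendrocyte precursors, Cajal-Retzius neurons, endothelial cells, pericytes and fibroblasts overlapped between the groups. With 3 libraries against 3 the exact two-sided permutation test cannot go below 0.10, which these classes without overlap reached (0.186 adjusted over the 13 classes). Shares sum to 100, so a class can gain share because another lost nuclei.

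**Figure D1:**
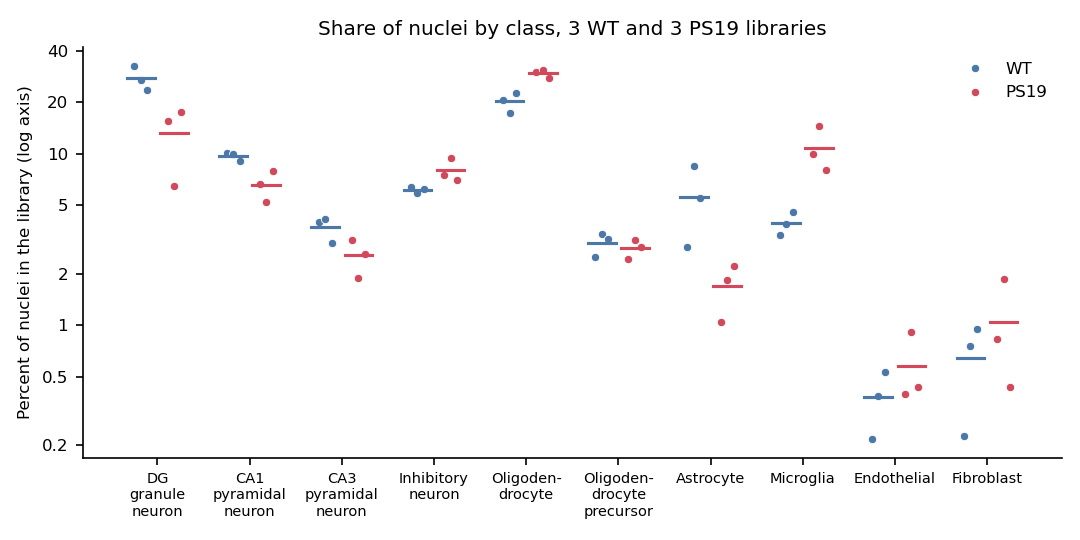
Share of nuclei (percent, log vertical axis) of 10 named classes, 1 point per library, WT and PS19 side by side, with the group mean as a line. Granule neurons, CA1 neurons and astrocytes lie lower in all 3 PS19 libraries than in all 3 WT libraries, and microglia and oligodendrocytes lie higher.

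What a class adds to the sum depends on the RNA per nucleus as well. A median microglial nucleus held 2043 UMIs, an oligodendrocyte 2179, a granule neuron 7862.5 and a CA3 neuron 20201. Microglia therefore contributed 0.702, 0.842 and 0.999% of all UMIs in WT and 3.21, 5.33 and 2.10% in PS19. Granule neurons contributed 31.5, 27.4 and 24.4% in WT and 17.0, 8.51 and 18.98% in PS19. Oligodendrocytes contributed 4.48 to 5.97% in WT and 8.09 to 12.2% in PS19, and astrocytes 1.15 to 3.68% against 0.565 to 1.08%. Among unnamed clusters, cluster 19 (led by Foxp2, Cdh18 and Dpp10) went from 1.17, 1.43 and 2.96% of nuclei in WT to 4.81, 4.58 and 3.55% in PS19. On the CLEAR background mean shares of nuclei were, for granule neurons, 22.5% in CLEAR and 19.5% in CLEAR_PS19, microglia at 4.87 and 7.06%, oligodendrocytes at 24.2 and 26.1% and astrocytes at 4.57 and 1.32% (exact permutation p 0.0286, 0.114, 0.229 and 0.0286, unadjusted, 4 against 4 libraries). Whether the shares shifted less there than between PS19 and WT was not tested.

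Across genes, 1491 of 22347 tested (6.67%) differed between PS19 and WT in the sums of all nuclei at an adjusted p under 0.05, 977 higher (4.37%) and 514 lower (2.30%) in PS19. Without single libraries the count ran from 295 (without WT 2) to 1688, with 430 without PS19 2 and 584 without WT 1, and 267 genes passed in each of these 6 fits. A fit of the 6 libraries alone called 15 genes, 14 higher and 1 lower, with 4238 at an unadjusted p under 0.05, so most calls rest on the spread estimated over all 14 libraries. Of the 91 genes that the naming rule selects and that were called, 6 were also called in that fit (Gm43049, Gm32754, Itgax, H2-K1, C4b and Lilrb4a), 82 were tested and not called, and Cd3e, Cd3g and Trbc2 were not tested in it. With the replicate number as a block, which joins libraries of the same number, 2723 were called, 1480 higher and 1243 lower. Relative to library totals instead of trimmed-mean scaling, the median of all genes moved by 0.114 on the log2 scale and the split was 1261 higher and 267 lower. With each nucleus thinned to about 1000 UMIs, so that each weighs alike, and nuclei under 1000 UMIs left out, the split was 628 higher and 686 lower over 17884 tested genes. With DESeq2 size factors it was 980 and 474. Higher genes thus outnumbered lower ones on the 3 scales applied to the sums, but not with thinned nuclei, where the nuclei and tested genes differed too. Fitted fold changes below are relative to the trimmed-mean scale. Class-share parts, values expected from shares and the observed values correlated with them are relative to library totals. Fitted and expected values set side by side thus differ in scale.

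How much of each difference came with the classes was computed in a pair of ways. The difference of mean CPM was divided exactly into a class-share part (the change in each class's share of UMIs times the gene's mean level there) and a within-class part. The class-share part was over 50% of the difference in 1004 of the 1491 called genes (67.3%), at a median of 61.9%. It was over 90% in 261 genes and under 10% in 47, in 28 of which it had the opposite sign. At the 50% mark higher and lower genes were alike, with 655 of 977 (67.0%) and 349 of 514 (67.9%). Over 90% they were not, with 214 of the 977 and 47 of the 514, a difference that was not tested. Without PS19 2 the percentage of called genes over the 50% mark was 59.0, and weighted by WT levels and PS19 shares it was 60.0. The class whose share contributed most was microglia for 707 and oligodendrocytes for 174 of the higher genes, and granule neurons for 433 and astrocytes for 56 of the lower genes.

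The second way repeated the edgeR test with an offset that holds the class shares of each library. Then 190 of 22347 genes (0.850%) differed, 150 higher (0.671%) and 40 lower (0.179%). Of the 1491 genes called in the sums, 163 (10.9%) were also called with shares held, and these are 85.8% of the 190. The median size of the fold change over the 1491 fell from 1.05 to 0.34 on the log2 scale. For the 163 it went from 2.79 to 1.81. Over all tested genes with an expected value (22335), the observed fold change and the one expected from class shares alone correlated at r = 0.724, a description across genes that share libraries and classes. It was 0.719 when the class levels were taken from the 8 libraries with the CLEAR mutation only. The held count ran from 10 (without WT 2) to 279, with 17 without WT 1, 50 without PS19 2 and 72 without PS19 1. It was 409 with the replicate block (287 higher and 122 lower) and 114 with clusters in place of classes (106 shared). Percentages of all genes given beside the lists below are those of the fits without the block. Of the 190, 9 genes passed in each of the 6 fits that leave a library out: Ptprc, Ifi204, Tlr5, Itgax, Ccl4, C4b and the noncoding RNA genes Gm43049, Gm32754 and 4930590L14Rik.

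**Figure D2:**
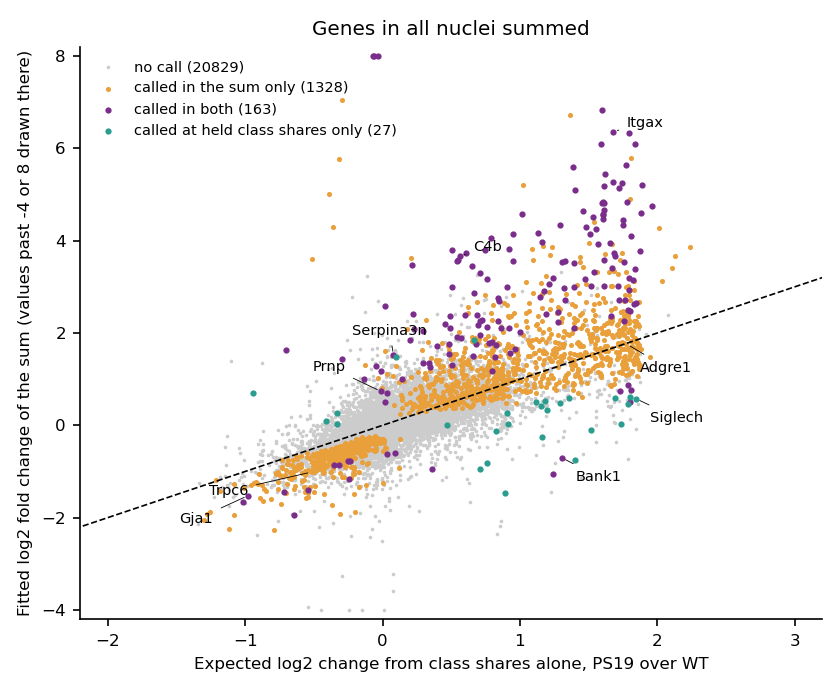
Each point is a gene, with the log2 fold change expected from class shares alone on the horizontal axis and the fitted log2 fold change of the sums on the vertical axis, and the dashed line marks equality. Expected values are relative to library totals and fitted ones to the trimmed-mean scale. Fitted values past -4 or 8 are drawn there. Genes called with class shares held, 190 in all, are drawn in other colours than the 1328 genes called in the sums only.

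Among microglial genes, several rose almost wholly with class shares. Adgre1, Pik3ap1, Rhoh and Gm2629 were named because their difference lay nearest to the class-share part, so their percentages and held values describe that choice. Adgre1 (chromosome 17, 57358691 to 57483527), which encodes the macrophage marker F4/80, measured 2.44, 3.23 and 3.04 CPM in WT 1, 2 and 3 and 8.57, 15.3 and 6.63 CPM in PS19 1, 2 and 3. PS19 2 was highest and no WT library reached the lowest PS19 library. It rose by 1.76 (SE 0.34, edgeR adjusted p 0.0101), and with shares held the value was 0.11 (adjusted p 0.989). The class-share part was 92.8%, and within microglia the fold change was -0.05 (0.915). Pik3ap1 (chromosome 19, 41272377 to 41385102), an adaptor of receptor signalling, measured 4.49, 4.61 and 6.36 CPM in WT 1, 2 and 3 and 14.8, 26.8 and 13.2 CPM in PS19 1, 2 and 3, again without overlap. It rose by 1.84 (92.7% class share), Rhoh, a blood-cell GTPase, by 1.80 (95.4%) and the predicted gene Gm2629 by 1.76 (98.1%). These 3 measured 0.12, 0.08 and 0.00 with shares held. Cd33, an inhibitory sialic acid receptor, rose by 1.34 (0.00141), less than the shares alone gave (132%), and measured -0.34 with shares held. Mlxipl, a transcription factor of sugar metabolism, rose by 1.60 and Mir142hg, the host gene of a blood-cell microRNA, by 2.04, against 0.11 and 0.51 with shares held. Adgre1 and Pik3ap1 were not called without PS19 2, WT 1 or WT 2 (adjusted p up to 0.061 and 0.0709), and the others named here passed in all 6 fits.

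Some genes were higher or without a call in the sums and lower within microglia. Siglech (chromosome 7, 55768178 to 55778925), a sialic acid receptor of homeostatic microglia, measured 16.5, 15.1 and 17.3 CPM in WT 1, 2 and 3 and 19.1, 28.0 and 25.8 CPM in PS19 1, 2 and 3 in the sums, a fold change of 0.58 that did not pass the test (edgeR adjusted p 0.0853) but passed with the replicate block (0.0301), relative to library totals (0.0391) and by DESeq2 (0.0443). Within microglia it measured 1616, 1438 and 1348 CPM in WT 1, 2 and 3 and 505, 467 and 964 CPM in PS19 1, 2 and 3 and fell by 1.26 (SE 0.20, adjusted p 9.61e-04). All PS19 libraries lay below all WT libraries there, PS19 3 nearest to WT. Selplg, the ligand of P-selectin, rose in the sums by 0.51 (0.0220) and fell within microglia by 1.31 (8.65e-04), from 780, 878 and 764 CPM in WT 1, 2 and 3 and 324, 249 and 413 CPM in PS19 1, 2 and 3. Csf1r, the receptor on which microglia depend for survival, rose in the sums by 1.13 (0.00593) and fell within microglia by 0.67 (0.0134). PS19 3, at 949 CPM, lay inside the WT range of 871 to 1174 CPM. Bank1 (chromosome 3, 136053363 to 136326066), an adaptor known from B cells, fell in both. In the sums it measured 6.78, 7.76 and 7.94 CPM in WT 1, 2 and 3 and 3.28, 5.24 and 5.40 CPM in PS19 1, 2 and 3 (-0.70, 0.0445). Within microglia it measured 451, 535 and 466 CPM in WT 1, 2 and 3 and 41.2, 62.7 and 119 CPM in PS19 1, 2 and 3 (-2.83, 1.07e-04). Bank1 lies on the same chromosome as noncoding RNA genes near 0 in WT (below), and the part of its position was not tested. With shares held, Siglech stood at -1.13 (0.0161), Selplg at -1.12 (0.0175), Bank1 at -1.88 (0.00775) and Csf1r at -0.49 (0.120). The falls of Siglech, Selplg and Bank1 within microglia passed without any 1 library, and that of Csf1r was lost without PS19 1, PS19 2, WT 1 or WT 2 (up to 0.0822). The held calls of the first 3 were lost without each of these 4 libraries (up to 0.112, 0.107 and 0.0707), and with clusters in place of classes Siglech and Selplg were at 0.44 and 0.66. Cluster 23, which held most WT microglia, is led by Siglech and Selplg, so that fit cannot decide whether they fell within microglia. Siglech was also lost without sex as covariate (0.124) and with the 6 libraries alone (0.0666). In the sums Selplg was not called without PS19 2, WT 1 or WT 2 (up to 0.117), and Bank1 was called only without PS19 2. Bank1 was also lost relative to library totals (0.0971) and without sex as covariate (0.113), and both with at least 1000 genes per nucleus. With thinned nuclei the sum of Selplg had an adjusted p of 0.931. Called in opposite directions in the sums and with shares held were 4 genes, Selplg, Abcc3, Gm10790 and Stab1 (summed 0.51, 0.74, 0.77 and 0.88; held -1.12, -0.85, -0.91 and -0.77). The held calls of the last 3 were lost without sex as covariate and with clusters in place of classes. They were picked out after their values were seen.

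**Figure D3:**
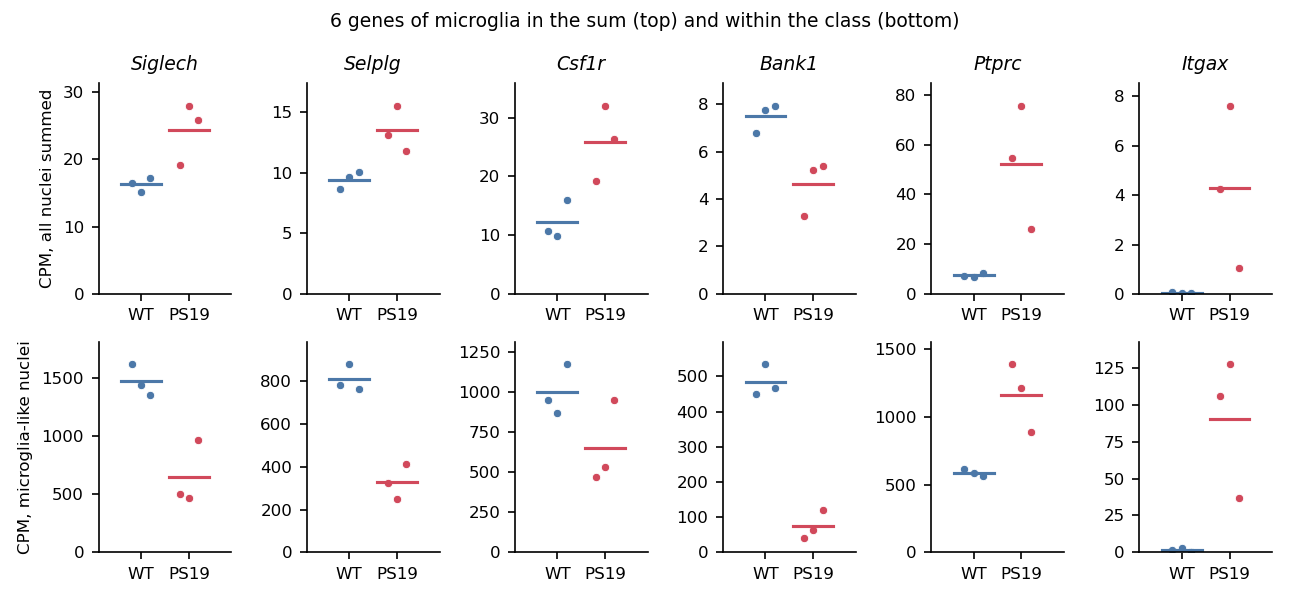
Levels (CPM, linear axes from 0) of Siglech, Selplg, Csf1r, Bank1, Ptprc and Itgax in the sum of all nuclei (top) and within microglia (bottom), 1 point per WT or PS19 library and the group mean as a line. Siglech within microglia runs from 1348 to 1616 CPM in WT and from 467 to 964 CPM in PS19, while its sums run from 15.1 to 17.3 and from 19.1 to 28.0 CPM.

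Over all genes tested within microglia, 1020 of 10468 differed (9.74%), 582 higher (5.56%) and 438 lower (4.18%). Of the 438 lower genes, 21 (4.80%) were called lower in the sums, 44 were called higher there, and 222 (50.7%) had a fold change of the opposite sign. Of all 22347 genes tested in the sums, 2.30% were called lower and 4.37% higher, and 10722 had a fold change above 0, so the share with the opposite sign lies near that of all genes. Of the 582 higher genes, 214 (36.8%) were called higher in the sums. The list of homeostatic microglial genes had 9 of 15 members higher in the sums (median 0.75), below the median expected from shares alone (1.39). With shares held 0 were higher and 2 lower (median -0.26), against 0.671% and 0.179% of all genes. With the replicate block 3 were lower with shares held, where 122 of all genes were. All genes tested had medians of -0.01 and -0.00. The class count was 449 without WT 2, 513 without PS19 2, 595 without WT 1 and 603 without PS19 1.

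Several myelin genes rose in the sums, as did the share of oligodendrocytes. Of 12 genes of the myelin list, 7 were called higher in the sums (4.37% of all genes) and 0 with shares held (0.671% of all genes, so that 0 of 12 lies near the background; medians 0.64 and -0.10; expected from shares 0.84). Aspa (chromosome 11, 73304992 to 73329596), which breaks down N-acetylaspartate for myelin lipid, measured 82.7, 67.6 and 78.1 CPM in WT 1, 2 and 3 and 148, 188 and 104 CPM in PS19 1, 2 and 3 and rose by 0.91 (SE 0.15, edgeR adjusted p 0.00555), against 0.10 with shares held. Mag (chromosome 7, 30899176 to 30914873), an adhesion protein of the innermost myelin layer, measured 58.4, 43.5 and 74.5 CPM in WT 1, 2 and 3 and 115, 125 and 101 CPM in PS19 1, 2 and 3 and rose by 0.94 (0.0219), against 0.19. In both genes PS19 was higher in every library. Mbp (chromosome 18, 82475146 to 82585637), a main protein of compact myelin, measured 289, 250 and 392 CPM in WT 1, 2 and 3 and 415, 504 and 497 CPM in PS19 1, 2 and 3. It rose by 0.62 (0.00622) with a class-share part of 105% and stood at -0.07 with shares held. Mog and Mobp rose by 0.64 and 0.65. In bulk tissue Mbp was higher by 0.29 (edgeR adjusted p 0.0279). Mag was not called without PS19 1, PS19 2, WT 1 or WT 2 (up to 0.11) and Mog and Mobp not without PS19 2 or WT 2 (up to 0.101 and 0.0851). With at least 1000 genes per nucleus Aspa, Mag, Mbp and Mog were not called (Aspa 0.0862), with thinned nuclei Mag, Mbp, Mog and Mobp were not (Mobp 0.27), and without sex as covariate Mog and Mobp were not (0.102 and 0.114).

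For 433 of the 514 lower genes the share of granule neurons contributed most to the class-share part. That share also fell most of the named classes, so the count does not show in which class a gene is expressed. Trpc6 (chromosome 9, 8544142 to 8680741), a cation channel concentrated in granule neurons, measured 234, 195 and 190 CPM in WT 1, 2 and 3 and 120, 69.7 and 122 CPM in PS19 1, 2 and 3. All PS19 libraries lay below all WT libraries, PS19 2 lowest, as in the share of granule neurons. It fell by 1.01 (SE 0.18, edgeR adjusted p 0.00664), 59.0% of it with class shares, and stood at -0.41 with shares held (0.0725). Cemip (chromosome 7, 83932857 to 84086502), a protein that breaks down hyaluronan, measured 86.5, 84.5 and 98.9 CPM in WT 1, 2 and 3 and 63.6, 55.3 and 72.1 CPM in PS19 1, 2 and 3, fell by 0.50 (0.00362) and stood at -0.21 with shares held (0.253). The other lower genes with the smallest p fell by 0.86 (Cecr2, a chromatin reader), 0.81 (Fat4, a giant cadherin), 0.62 (Kcng1, a modifier of potassium channels), 0.92 (Fads2, a fatty acid desaturase), 0.61 (Ankrd6), 0.80 (Mmd2) and 0.49 (Crtac1, an extracellular protein of neurons). Crtac1 had a class-share part of 9.27%, and its summed call was lost without sex as covariate (0.218). It fell within CA1 neurons by 0.68 (0.0269; lost without PS19 1, WT 1, WT 2 or WT 3, up to 0.132). Slc29a4, a monoamine transporter, fell by 0.85 in the sums and stood at -0.06 with shares held (98.5% class share), and the held value and percentage describe its choice as a gene nearest to the class-share part. Mfsd13b was called in both, at -1.40 and -0.78 (0.0121), and within granule neurons at -0.91 (0.0173). Its held call was lost without PS19 1, PS19 2, WT 1 or WT 2 (up to 0.0942) and with thinned nuclei (0.324), and its class call without PS19 1, PS19 2 or WT 2 (up to 0.0966). Among predicted genes, Gm12239, Gm42722 and Gm31816 fell by 1.41, 0.78 and 0.81. The summed calls named here passed without any 1 library, and that of Gm42722 was lost with thinned nuclei (0.201).

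Prox1, the transcription factor that defines granule neurons, measured 120, 101 and 108 CPM in WT 1, 2 and 3 and 89.5, 69.9 and 95.3 CPM in PS19 1, 2 and 3, a fold change of -0.38 that did not pass the test (0.154) but passed with the replicate block (0.0332). Of the 5 granule markers, Trpc6 alone was called in the sums (2 with the replicate block), whereas all 5 were called lower in bulk tissue of 9 months (5.09% of all genes). The sum of their levels was 830 to 935.7 CPM in WT and 728.1 to 766.7 CPM in PS19. Within granule neurons, 75 of 17073 genes differed (0.439%), 47 higher (0.275%) and 28 lower (0.164%). Of the 28, 10 (35.7%) were called lower in the sums, against 2.30% of all genes, and 9 (32.1%) had the opposite sign there. The count within granule neurons was 21 to 47 without WT 2, PS19 2, WT 1, PS19 1 or WT 3, and 287 with the replicate block.

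Several astrocyte genes fell, as did the share of astrocyte nuclei. Ntsr2 (chromosome 12, 16653382 to 16660227), a neurotensin receptor of astrocytes, measured 14.1, 30.8 and 20.96 CPM in WT 1, 2 and 3 and 9.33, 11.5 and 14.2 CPM in PS19 1, 2 and 3. It fell by 0.91 (SE 0.23, edgeR adjusted p 0.0313), 93.1% of it with class shares. Ntsr2, Phkg1 and Atp13a4 were named because their difference lay nearest to the class-share part, so their percentages describe that choice. WT 2 was highest for Ntsr2 and PS19 3 lay just above WT 1, so the groups overlapped. Gja1 (chromosome 10, 56377330 to 56402513), the gap junction protein connexin 43, measured 11.3, 31.7 and 15.2 CPM in WT 1, 2 and 3 and 4.76, 9.41 and 5.90 CPM in PS19 1, 2 and 3 and fell by 1.52 (0.0272), against -0.47 with shares held (0.0389). Phkg1, a subunit of the kinase that starts glycogen breakdown, and Atp13a4, a transport ATPase, fell by 0.96 and 1.27, with class-share parts of 94.9% and 103%. Fgfr3, a growth factor receptor, fell by 1.36 (0.0187). Gldc, which breaks down glycine, fell by 1.67 (0.00947), by 0.55 with shares held (0.0294) and by 0.68 within astrocytes (0.0225). Bulk tissue of 9 months gave the other direction for several of them, with Gja1 at 0.26 (adjusted p 7.51e-04), Atp13a4 at 0.46 (0.00414), Phkg1 at 0.29 (0.0199) and Ntsr2 at 0.18 (0.0849). With the replicate block 4 of the 6 astrocyte markers were lower in the summed nuclei, where 1243 of all genes were. Without it 3 of the 6 were called lower there (2.30% of all genes), and 4 were called higher in bulk (7.68% of all genes). The part of nuclear isolation in this was not tested. None of these calls was free of single libraries: without WT 2 the adjusted p was 0.148 for Ntsr2, 0.157 for Gja1, 0.138 for Phkg1, 0.13 for Atp13a4, 0.0892 for Fgfr3 and 0.0541 for Gldc. All but Gldc were also lost without PS19 1 and PS19 2, Gja1 and Atp13a4 without PS19 3, and Ntsr2 and Phkg1 without WT 3. The held call of Gja1 was lost without each library but PS19 3 and that of Gldc without each library. Its astrocyte call was lost without each library but PS19 3 (up to 0.279). Without sex as covariate the held adjusted p was 0.75 for Gja1 and 0.0717 for Gldc, with thinned nuclei 0.0567 for Gldc, and relative to library totals the summed call of Ntsr2 was lost (0.0595).

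Calls in lists of neuronal function were mostly lower, where 2.30% of all genes tested were called lower. Of 20 genes of synaptic vesicles and release, 4 fell in the sums, namely Cplx2 (-0.62), which clamps vesicle fusion, Syn2 (-0.44), which tethers vesicles, Bsn (-0.35), a scaffold of the active zone, and Syp (-0.39), a vesicle membrane protein. Of 17 ionotropic glutamate receptor genes only Grik5 fell (-0.32), and of 12 GABA-A receptor genes Gabra2 (-0.67) and Gabrd (-0.72) fell. Of 27 voltage-gated channel genes 5 fell, Kcnh1 (-0.50), Cacna1e (-0.47) and Cacna1i (-0.38) among them, and the axonal potassium channel Kcna1 rose (0.45, edgeR adjusted p 0.00589). Neurod1, a factor of young granule neurons, fell by 0.78 (0.0387), 1 of 11 genes of granule neuron birth and maturation, and Nectin3, an adhesion protein marking CA3, fell by 0.53 (0.0309), 1 of 4 CA3 markers. With the replicate block more members were lower in the sums: 8 of the synaptic vesicle genes, 9 of the glutamate receptor genes (Gria1, Grin2a and Grin2b among them, at adjusted p 0.0332, 0.04 and 0.0292), 6 of the GABA-A receptor genes (Gabra4 at 0.0134 and Gabrb2 at 0.023), 12 of the channel genes and 2 of the CA3 markers, where 1243 of all genes were lower. With shares held, none of these lists had a call, which at 0.179% of all genes called lower lies near the background. With the block 1 GABA-A gene was lower and 1 channel gene higher. List medians, summed and held, were -0.26 and -0.15 (synaptic vesicle), -0.29 and -0.09 (glutamate receptor), -0.40 and -0.13 (GABA-A) and -0.28 and -0.09 (channels). With shares held 0 of 20, 2 of 17, 0 of 12 and 6 of 27 of these genes had values above 0. Granule neuron birth and CA3 had 5 of 11 and 2 of 4, and all genes 11027 of 22347. Apart from Kcna1, each of these named genes lost its call without WT 2, and all but Cplx2 also without PS19 2 and WT 1. Their highest adjusted p over such fits ran from 0.052 for Cplx2 to 0.193 for Neurod1. Syp lost its call without any 1 library. Without sex as covariate Bsn, Syp, Grik5, Kcnh1, Cacna1e, Cacna1i, Neurod1 and Nectin3 were not called, and relative to library totals Bsn, Syp, Grik5, Gabrd, Cacna1i, Neurod1 and Nectin3 were not. With thinned nuclei Gabrd, Cacna1i, Neurod1 and Syp were not. Prkcd, a thalamic marker, rose by 1.11 (0.00681; 0.17 with shares held), while the other 3 of its list were not called (Synpo2 was lower with the replicate block, 0.0384).

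Differences that did not come with classes were led by 3 noncoding RNA genes near each other on chromosome 3. Gm43049 (140692038 to 140760704, mm10) had 21484 UMIs in all of PS19 and 4 in all of WT, at 96.0, 65.7 and 129 CPM in PS19 1, 2 and 3. Gm32754 (140904998 to 140917459) had 2808 and 4 UMIs, and 4930590L14Rik (140951876 to 140953247) had 252 and 0. All 3 were present in every PS19 library and at or near 0 in every WT library. Gm43049 passed with an edgeR adjusted p of 2.93e-08 (3.58e-09 with shares held), and its class-share part was -1.38%. It was called in granule, CA1, CA3 and inhibitory neurons, oligodendrocytes, precursors and astrocytes, but not in microglia. The astrocyte call was lost without PS19 2, WT 1, WT 2 or WT 3 (up to 0.101), and the others passed in all 6 fits. On the CLEAR background it was also called (log2 fold change 10.46, 4.74e-09). Fold changes of genes near 0 in WT depend on the prior count of the fit. The last of the 3 was picked out after its values were seen.

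C4b (chromosome 17, 34728380 to 34743882), a complement component that tags surfaces for removal, measured 4.07, 2.28 and 4.82 CPM in WT 1, 2 and 3 and 54.4, 56.4 and 32.7 CPM in PS19 1, 2 and 3. Every PS19 library lay far above every WT library, PS19 3 lowest of the 3. It rose by 3.67 (SE 0.42, edgeR adjusted p 0.00183) and by 3.19 with shares held (0.00238), with 18.6% of the difference from class shares. Within oligodendrocytes it measured 35.7, 10.5 and 33.8 CPM in WT 1, 2 and 3 and 435, 378 and 318 CPM in PS19 1, 2 and 3 and rose by 3.81 (0.00342). It also rose by 3.76 in precursors and 1.80 in astrocytes, and in bulk by 2.22. Nuclei of microglia had 0, 0 and 0 CPM in WT 1, 2 and 3 and 22.6, 20.1 and 12.1 CPM in PS19 1, 2 and 3, and granule neurons 0.232, 0.0472 and 0.251 CPM in WT 1, 2 and 3 and 4.41, 3.62 and 1.71 CPM in PS19 1, 2 and 3, both called higher. The part of free RNA in these class values was not tested. The sums and the calls in oligodendrocytes, precursors, astrocytes and microglia passed without any 1 library. Of the 9 complement genes, 8 rose in the sums (4.37% of all genes; median 1.92). With shares held C4b alone did (0.671% of all genes, median 0.53), and 2 did with the replicate block, where 287 of all genes were higher.

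Some genes of antigen presentation and of the interferon response rose in the sums and with shares held. Of 14 genes of MHC class I and class II, 9 rose in the sums and 4 with shares held, against 4.37% and 0.671% of all genes (medians 2.05 and 1.14). H2-K1 (chromosome 17, 33996017 to 34000347), a class I heavy chain, measured 2.58, 2.64 and 2.09 CPM in WT 1, 2 and 3 and 11.3, 14 and 7.15 CPM in PS19 1, 2 and 3 and rose by 2.11 (edgeR adjusted p 2.71e-04), or 1.38 with shares held (0.00643). H2-D1, another heavy chain, rose by 2.18 and 1.58 (0.0161), B2m, the light chain, by 2.13 and 1.47 (0.0115), and Nlrc5, the activator of class I genes, by 3.56 and 2.64 (0.0247). H2 genes have near-identical relatives, so their levels are uncertain. Of 15 genes of the type I interferon response, 13 rose in the sums and 5 with shares held, against the same percentages of all genes. The medians were 1.61 and 1.33, with 0.49 expected from shares. With the replicate block 8 rose with shares held, where 287 of all genes did. Usp18, a brake on interferon signalling, rose by 3.29 and 2.58 (0.00812). With shares held, the calls of H2-K1 and Usp18 were lost without WT 1 or WT 2 (up to 0.0718 and 0.0707), that of B2m also without PS19 2 (0.0993), and those of H2-D1 and Nlrc5 without PS19 1 as well (0.108 and 0.159). Without sex as covariate H2-K1 and H2-D1 were at 0.0657 and 0.212, and Usp18 at 0.0507 with the 6 libraries alone.

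**Figure D4:**
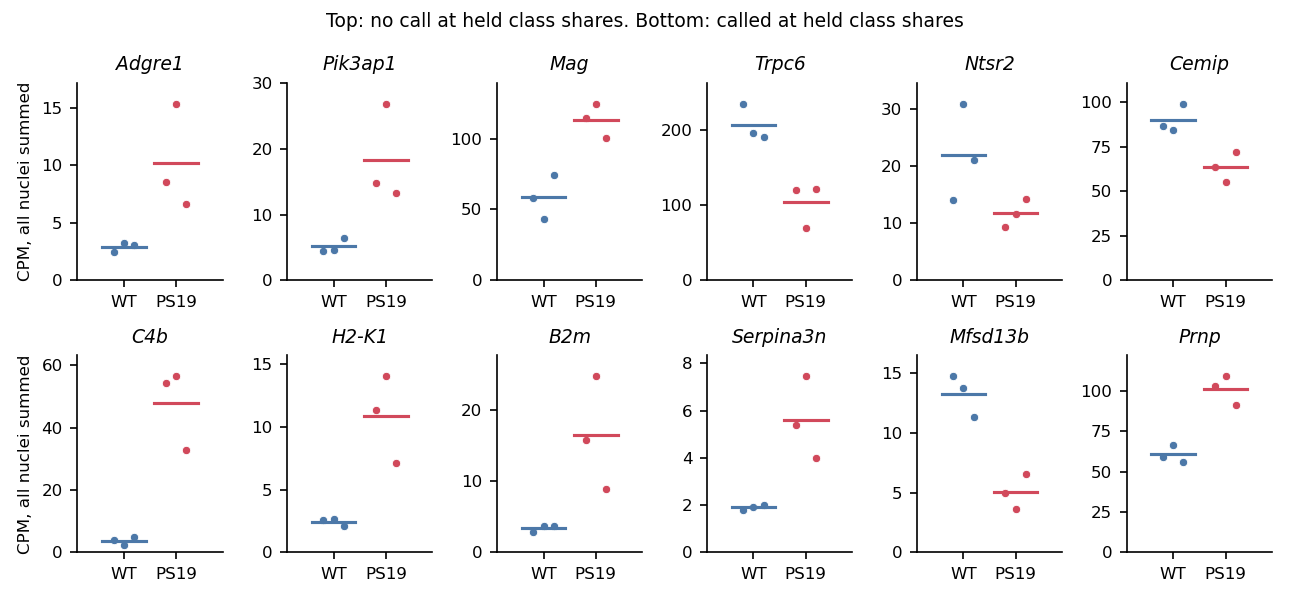
Levels (CPM, linear axes from 0) in each WT and PS19 library, with the group mean as a line, of 6 genes not called with class shares held (top: Adgre1, Pik3ap1, Mag, Trpc6, Ntsr2 and Cemip) and 6 called (bottom: C4b, H2-K1, B2m, Serpina3n, Mfsd13b and Prnp). C4b runs from 2.28 to 4.82 CPM in WT and from 32.7 to 56.4 CPM in PS19, while Ntsr2 overlaps between the groups.

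Of 24 genes of the disease-associated microglia (DAM) list, 14 rose in the sums and 7 with shares held, against 4.37% and 0.671% of all genes. With the replicate block it was 21 and 13, where 1480 and 287 of all 22347 genes were higher. The 7 were Itgax, Spp1, Ccl6, Lyz2, Lgals3, Cd52 and B2m, and the medians of the list were 1.57 and 0.84. Itgax (chromosome 7, 128129547 to 128150657), the integrin CD11c, had 11 UMIs in all of WT and 1017 in all of PS19, at 4.26, 7.63 and 1.03 CPM in PS19 1, 2 and 3. It rose by 6.37 (edgeR adjusted p 0.00197), or 4.68 with shares held. Ptprc (chromosome 1, 138062861 to 138175708), the leukocyte phosphatase CD45, measured 7.22, 6.64 and 8.57 CPM in WT 1, 2 and 3 and 54.8, 75.7 and 26.0 CPM in PS19 1, 2 and 3 and rose by 2.72 (0.00243), or 1.07 with shares held (0.00238). Both held calls passed without any 1 library, and PS19 3 was the lowest PS19 library in each. Ifi204, an interferon-inducible DNA sensor, rose by 5.25 and 3.53, Lilrb4a, an inhibitory receptor, by 5.64 and 3.88, Olfr111, an olfactory receptor gene, by 4.45 and 2.74, and Anapc15, a subunit of the anaphase-promoting complex, by 1.80 and 1.09. The held call of Lilrb4a was lost without WT 1 or WT 2 (up to 0.0619), those of Olfr111 and Anapc15 without WT 2 (0.0679 and 0.0619), and that of Anapc15 also with clusters in place of classes (0.12). Ccl6 rose by 3.17 and 1.75, the latter lost without every library but PS19 3 (up to 0.154) and with thinned nuclei (0.12). With clusters in place of classes Lyz2, Lgals3, Cd52 and Ccl6 were not called either (0.244, 0.314, 0.054 and 0.0566). Clusters 23 and 24 divided most microglia of PS19 1 and PS19 2 from those of WT, so that fit also takes out differences between them. Tlr5, a flagellin receptor, went against these with 90 UMIs in WT and 54 in PS19, and -2.08 with shares held (0.00268), and was picked out after its values were seen.

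Of 19 V-ATPase genes 1 was called higher, near the 4.37% of all genes, namely Atp6v0d2. This subunit of the membrane sector, known from osteoclasts and macrophages, had 2, 0 and 2 UMIs in WT 1, 2 and 3 and 208, 337 and 14 in PS19 1, 2 and 3. It rose by 6.84 (edgeR adjusted p 0.00917), or 5.18 with shares held (0.0399). The summed call was lost without WT 1 or WT 2 (up to 0.0772) and the held one without every library but PS19 3 (up to 0.295), without sex as covariate (0.111) and with clusters in place of classes (0.0598). With the replicate block Atp6v1a, a subunit of the catalytic sector, was lower in the sums as well (-0.28, 0.0446). The list's medians were -0.01 and -0.02. Of 30 lysosomal genes, 9 rose in the sums, among them Ctss, Ctsz and Cd68, and 0 with shares held, against 4.37% and 0.671% of all genes (medians 0.40 and 0.10, expected 0.32). With the replicate block it was 14 and 2, where 1480 and 287 of all genes were higher.

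Among reactive astrocyte genes, 2 of 9 rose in the sums and 3 with shares held, against 4.37% and 0.671% of all genes. With the replicate block it was 3 and 5, where 1480 and 287 of all genes were higher. Serpina3n (chromosome 12, 104406729 to 104414329), a secreted protease inhibitor, measured 1.79, 1.93 and 2.02 CPM in WT 1, 2 and 3 and 5.41, 7.45 and 3.98 CPM in PS19 1, 2 and 3 and rose by 1.51 (edgeR adjusted p 0.00318) and 1.52 with shares held (0.00643). Its rise was 3.92 in oligodendrocytes (9.75e-05), 3.67 in astrocytes (0.0119) and 1.04 in granule neurons (0.0367). Cd44, a hyaluronan receptor, rose by 1.93 and 1.40 (0.0463), and Gfap, the intermediate filament of astrocytes, was called with shares held only. Without WT 1 or WT 2 the held calls of all 3 were lost (up to 0.0707, 0.281 and 0.107), those of Gfap and Cd44 also without PS19 1 or PS19 2, and that of Cd44 also without WT 3 and without sex as covariate (0.0657). In single classes the oligodendrocyte call of Serpina3n passed in all 6 fits, the astrocyte call only without WT 3 or PS19 3, and the granule neuron call only without WT 3.

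Of 15 genes of cholesterol synthesis, 3 fell in the sums and 1 with shares held by edgeR, against 2.30% and 0.179% of all genes. With the replicate block it was 7 and 3, where 1243 and 122 of all genes were lower. The medians of the list were -0.37 and -0.39, while shares alone gave 0.12. In bulk 11 of the 15 were called lower (5.09% of all genes). Srebf2, the transcription factor of the pathway, fell in the sums by 0.30 (adjusted p 0.0487), a call lost without any 1 library (up to 0.227), without doublets (0.0586), with thinned nuclei (0.128), without sex as covariate (0.236) and relative to library totals (0.321).

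**Figure D5:**
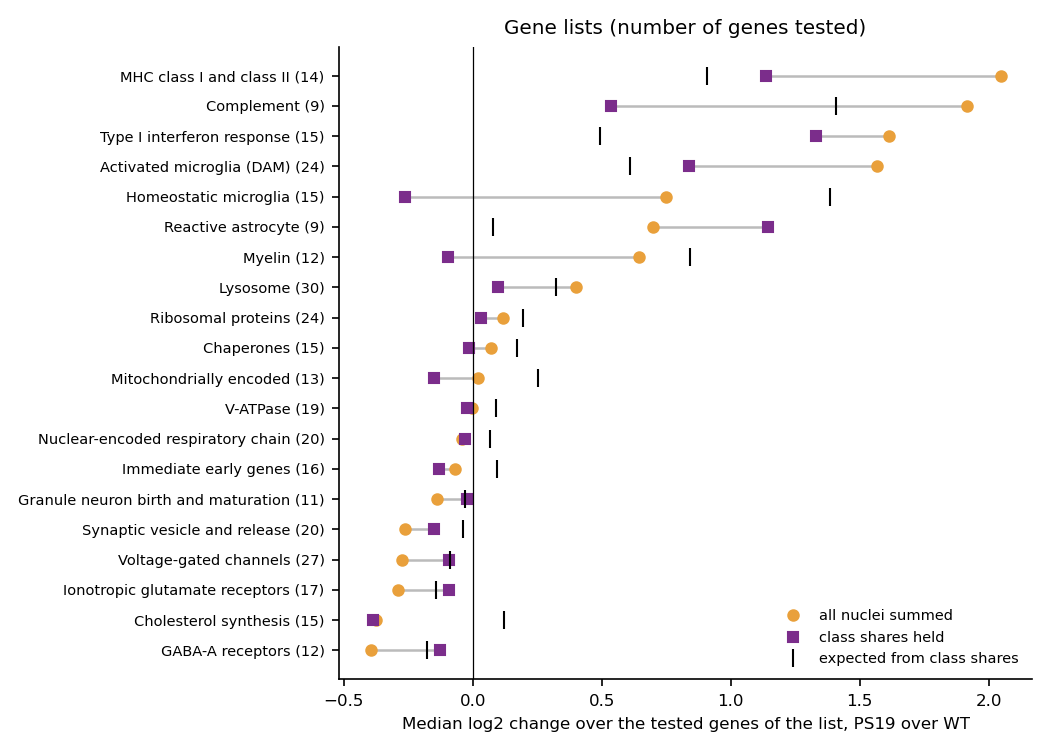
Median log2 fold change (horizontal axis) of each gene list in the sums, with class shares held, and expected from class shares alone. Expected values are relative to library totals and fitted ones to the trimmed-mean scale. Myelin and homeostatic microglial lists move to or below 0 once shares are held (0.64 to -0.10 and 0.75 to -0.26), whereas the interferon list keeps most of its median (1.61 to 1.33).

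Lists of chaperones, the nuclear-encoded respiratory chain, mitochondrially encoded genes, ribosomal proteins and immediate early genes held 0 calls by edgeR in the sums and with shares held, with 4.37% and 2.30% of all genes called higher and lower in the sums. With the replicate block Rps29, a ribosomal protein, was higher in the sums (0.42, 0.0203). Markers of other cell types that tissue could bring in were looked at too. Endothelial, pericyte, fibroblast, choroid plexus, ependymal, striatal and blood lists held 0 calls, and with the replicate block Kl (choroid plexus) was lower (0.0422). Their medians ran from -2.07 (5 blood genes) to 1.103 (5 ependymal genes), with 0.63 for the 6 endothelial genes, all 6 of which had a higher value in PS19. Of 7 border macrophage markers, Mrc1 and Ms4a7 rose (1.68 and 3.07), and the summed level of the 7 was 10.0 to 16.2 CPM in WT and 18.7 to 41.1 CPM in PS19. Of 6 tested T cell markers, Cd3e, Cd3g and Trbc2 rose, at 2, 3 and 13 UMIs in all of WT and 50, 42 and 60 in PS19. Cd3e had 0 UMIs in PS19 3. Each of these 5 genes lost its call without WT 2 or PS19 2, the 4 other than Trbc2 also without WT 1, and Cd3e also without PS19 1 (up to 0.227) and without sex as covariate (0.0739). Mrc1 was not called without doublets (0.0772), with at least 1000 genes per nucleus (0.0874) or with thinned nuclei (0.096).

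Rises were also recorded in classes that should lack the gene. C1qa (chromosome 4, 136895917 to 136898803), a chain of the complement protein C1q made by microglia, measured 7.73, 6.48 and 8.08 CPM in WT 1, 2 and 3 and 28.3, 45.8 and 19.1 CPM in PS19 1, 2 and 3 in the sums and rose by 1.99 (edgeR adjusted p 0.00897). Within microglia it stood at -0.03 (0.981), with 453 to 483 CPM in WT and 402 to 514 CPM in PS19. Within granule neurons it measured 2.79, 1.89 and 2.51 CPM in WT 1, 2 and 3 and 14.1, 14.8 and 7.39 CPM in PS19 1, 2 and 3 and rose by 2.31 (0.00792). Within oligodendrocytes it rose by 2.21 (0.00441). Ctss, a microglial protease, behaved alike at 0.16 in microglia (0.731), 2.57 in granule neurons (1.16e-04) and 2.35 in oligodendrocytes (0.00359). These levels, like the share of microglia, were higher in all PS19 than in all WT libraries. The part of free RNA in them was not tested. With doublets left out C1qa had an adjusted p of 0.0110 in granule neurons. Its summed call was lost without WT 1 or WT 2 (up to 0.0657), the granule neuron call without WT 2 (0.0587) and the oligodendrocyte call, like that of Ctss, without WT 1 (0.053 and 0.0566). With shares held C1qa stood at 0.73 (0.576).

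In the remaining classes few genes were called. Oligodendrocytes had 90 of 13803 (0.652%; 69 higher and 21 lower, 0.152%), astrocytes 71 of 10715 (0.663%; 59 higher, 0.551%, and 12 lower, 0.112%), precursors 39 of 11375 (0.343%; 36 higher, 0.316%, and 3 lower, 0.0264%), CA1 neurons 20 of 15864 (0.126%; 18 higher, 0.113%, and 2 lower, 0.0126%), CA3 neurons 4 of 14881 (0.0269%; all higher) and inhibitory neurons 3 of 16175 (0.0185%; all higher). Of the 69 genes higher in oligodendrocytes, 48 (69.6%) were called higher in the sums, as were 17 of the 59 (28.8%) higher in astrocytes. Called lower in the sums were 0 and 2 of them. Of all genes 4.37% were called higher there. The sums include the UMIs of each class, and the classes were not compared by a test. With the replicate block the counts of genes called within the classes were 527, 196, 92, 65, 15 and 26 in the order above. They also moved with single libraries, down to 8 in oligodendrocytes (without WT 1), 4 in astrocytes, 6 in precursors and 2 in CA1 neurons (all without WT 2), and up to 142, 182, 55, 15 and 23 in oligodendrocytes, astrocytes, CA1, CA3 and inhibitory neurons without PS19 3, the only female PS19 library. Genes of microglia were among the calls, namely C1qa, C1qb, C1qc, Ctss and Tyrobp (of the DAM list) in oligodendrocytes and CA1 neurons. Precursors had C1qa, C1qb and Ctss, and astrocytes C1qa. Each of these calls was lost without at least 1 library, and the part of free RNA in them was not tested.

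The same contrast was available on the CLEAR background and in bulk tissue, from other libraries. The CLEAR libraries do enter the fit of PS19 and WT, through the spread and through the class levels behind the held values. Between CLEAR_PS19 and CLEAR, 21 of 22347 genes were called in the sums (0.0940%), 12 higher (0.0537%) and 9 lower (0.0403%), and 7 with shares held (0.0313%), 6 higher (0.0268%) and 1 lower (0.00447%). Of the 977 genes higher in PS19 than in WT, 916 (93.8%) had a higher value there too, and of the 514 lower genes 479 (93.2%) a lower one, against 62.5% of all genes tested. The difference between the backgrounds was called for 0 genes by edgeR, with 1881 at an unadjusted p under 0.05, and for 56 by DESeq2. In bulk tissue of 9 months (5 WT and 4 PS19 libraries), 2060 of 16133 genes differed (12.8%), 1239 higher (7.68%) and 821 lower (5.09%), and 1185 without PS19 replicate 5 of bulk. Of the 665 higher genes also tested in bulk, 636 (95.6%) had the same direction and 442 were called in it. Of 462 lower genes, 381 (82.5%) had it and 119 were called, while 18 were called in the opposite direction. Over all genes 67.7% had the same direction.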

How the data were processed

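Nuclei of hippocampus were compared between 3 PS19 and 3 WT libraries, with 8 further nuclei libraries in the fits and bulk libraries beside them. Deposited nuclei matrices give raw UMI counts for each gene in each barcode. Per the file headers they were written by Cell Ranger 5.0.1, and the submitters' processing notes add Seurat and mm10. The bulk files hold raw read counts per gene, from cutadapt, STAR and featureCounts per those notes. Whether introns were counted is not given in the sources used here.

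Clusters were made with scanpy 1.11.5 (2000 variable genes, 30 components, 20 neighbours, Leiden resolution 1) over barcodes with 300 or more genes and named from marker lists. Scrublet predicted doublets at 0.8% per 1000 barcodes. UMIs were summed per gene and library and tested with edgeR 4.0.16 in R 4.3.3 (trimmed-mean scaling, filterByExpr, sex as covariate, quasi-likelihood, two-sided, Benjamini-Hochberg 0.05). The fit with shares held adds, per gene and library, an offset for the level expected from the class shares of UMIs and the gene's mean level per class over the 14 libraries. The fit was tested on simulated counts with the same set spread for every gene and changes in well-expressed genes only. That test does not show how the fit does at the spread of these libraries. DESeq2 1.42.0 was an alternative. Same-numbered WT and PS19 libraries deviated together from their group means (r 0.376, 0.337 and 0.438 over 22347 genes), against -0.394 to 0.0689 for other pairs. The deviations of a group sum to 0 for each gene, so values above 0 in same-numbered pairs pull those of other pairs down. Replicate 3 was female in both groups, so its value includes sex. The labels name no pairing. The replicate block also joins CLEAR and CLEAR_PS19 libraries by number, where replicate 3 was male, and that link was not checked. A fit that leaves a library out keeps all other libraries of the 14.

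Genes were named by a rule: the 12 higher and 12 lower with the smallest p at 5 CPM or more in the sums, 8 and 8 with shares held, 4 and 4 whose difference was nearest to the class-share part, Prnp and Mapt, and up to 4 per list. Some genes that the rule selects are not reported here. Gene sets and lists were chosen with earlier results of these data known. Coordinates come from GENCODE M21 (mm10), which matched 32158 of 32285 gene IDs. Barcodes under 500 genes were left out of the sums, and bulk libraries of 4 months entered only the bulk fit's spread.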

Additional observations from a re-analysis of the deposited data

How the results depend on the processing

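Beside the values above, the count in the sums was 917 without sex as covariate and 2395 by DESeq2, and it was 15 with the 6 libraries alone and 2723 with the replicate block; leaving out a library gave 295 to 1688. With shares held the counts were 96, 144 and 409 without sex, with 6 libraries and with the block, 114 with clusters in place of classes, and 10 to 279 without single libraries. Among the counts and named genes recomputed here, no called value reversed. With the replicate block the classes had 287 (granule neurons), 65 (CA1), 15 (CA3), 26 (inhibitory), 527 (oligodendrocytes), 92 (precursors) and 196 (astrocytes) genes. With 6 libraries CA1 had 12, inhibitory neurons 6, oligodendrocytes 306, precursors 66 and astrocytes 137, and with doublets left out inhibitory neurons had 7. Single libraries left out gave 21 to 61 (granule neurons), 2 to 55 (CA1), 3 to 15 (CA3), 2 to 23 (inhibitory neurons), 8 to 142 (oligodendrocytes), 6 to 51 (precursors), 4 to 182 (astrocytes) and 449 to 1119 (microglia). The interaction with the CLEAR background had 56 genes by DESeq2 and 0 to 1 without single libraries, and bulk 1185 to 2060. The percentage of called genes with a class-share part over 50% was 71.2 with clusters, 60.0 with WT levels, 69.8 without doublets and 59.0 to 69.8 without single libraries. The difference in oligodendrocyte share was 13.1 points among named clusters and 9.40 among all nuclei, and that of T cells 0.079 and 0.237 points with at least 1000 and at least 500 genes. With the replicate block no call of a named gene was lost, in the sums or with shares held, and 24 of 98 named genes without a call in the sums gained one. The cause of these differences was not tested. Depth limits genes near 0 in WT and the classes with few nuclei (97 astrocytes in the smallest library).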
